A study of Mus musculus with 208 samples.

Results

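Heat shock proteins and chaperones were followed in the striatum of mice that carry a lengthened CAG repeat in the Huntington's disease gene Htt. The set is a list of 37 gene symbols named for their function. Of these, 36 had a gene identifier among the 39179 identifiers of the deposited tables. Hspa14 had none and was not analysed here. By role the 36 genes comprised 8 cytosolic Hsp70 and Hsp110 proteins, 2 cytosolic Hsp90 proteins, 7 J-domain proteins, 5 small heat shock proteins, 5 chaperones of the endoplasmic reticulum, 4 of mitochondria, 2 subunits of the chaperonin CCT, 2 co-chaperones and the regulator Hsf1.

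Striatal mRNA was sequenced from 6 heterozygous knock-in lines on a C57BL/6 background, named by repeat length as Q20, Q80, Q92, Q111, Q140 and Q175, and from wild-type mice, at 2, 6 and 10 months of age. Each of the 26 groups held 8 libraries, giving 144 knock-in and 64 wild-type libraries, mostly from 4 females and 4 males. The Q20 group of 10 months held 5 females and 3 males, and the Q80 group of 2 months held 3 females and 5 males. Sex was taken from the labels and was not tested. Female 5 of Q20 at 10 months and male 3 of Q80 at 2 months share a name code with libraries of the opposite sex. The labels of these libraries are therefore uncertain. An alternative at 2 months left out that Q80 library. At 6 months every line was accompanied by its own wild-type cage mates, whereas the wild types of 2 and 10 months had shared cages with Q20 mice. Q20 mice carry a knock-in allele of ordinary repeat length and served as the control of the longer repeats, so all comparisons with Q20 at one age share the same 8 control libraries. Each knock-in line is 1 allele in whole striatum, and in such bulk tissue fewer cells of a type and less RNA per cell cannot be told apart.

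Chaperones bind unfolded or partly folded proteins and keep them from clumping. Hsp70 proteins bind and release such clients in cycles driven by ATP, J-domain proteins hand clients to them, and Hsp110 proteins exchange their nucleotide. Hsp90 proteins finish the folding of kinases and receptors, small heat shock proteins hold clients without using ATP, and CCT folds actin and tubulin in a closed chamber. Chaperones have long been studied in Huntington's disease because the expanded glutamine stretch of huntingtin aggregates, and Dnajb6, Hspa8 and CCT are known to restrain such aggregates in cell and animal models. Many chaperone genes are switched on by the transcription factor Hsf1 through heat shock elements, and those of the endoplasmic reticulum through a separate stress element.

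The promoter stretches of 7 members are shown because they carry the motifs of these responses. Sequences and coordinates are from RefSeq on GRCm38.p6, whose promoter table held 30 of the 37 genes. Each window ran from 250 bases before to 50 bases after the annotated start. Hspa8, Hsp90aa1, Hsp90ab1, Cryab, Hspa13, Hspa9 and Hsf1 were not in that table. The endoplasmic reticulum stress element was searched on both strands as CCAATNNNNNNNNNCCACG. It was present in 3 members, against 0.14% of the 27025 genes with a window, and is in capitals in these stretches of Hspa5, 80 to 31 bases before its start (chr2:34772010-34772059, plus strand), Hsp90b1, 220 to 81 bases before its start (chr10:86705525-86705664, minus strand), and Dnajc3, 120 to 71 bases before its start (chr14:118937812-118937861, plus strand).
Hspa5: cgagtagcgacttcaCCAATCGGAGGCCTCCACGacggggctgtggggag
Hsp90b1: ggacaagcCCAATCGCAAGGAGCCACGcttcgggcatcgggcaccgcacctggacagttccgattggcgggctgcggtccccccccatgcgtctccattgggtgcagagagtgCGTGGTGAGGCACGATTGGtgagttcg
Dnajc3: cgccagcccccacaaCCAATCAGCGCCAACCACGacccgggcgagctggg

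The heat shock element was searched on both strands as 3 units, GAANNTTCNNGAA or TTCNNGAANNTTC. It was present in Dnajb6, Hspd1, Hspe1 and Hsph1, 4 of the 30 members with a window, against 0.66% of all genes. Hspd1 and Hspe1 are neighbours whose windows overlap, and both hold the same site, read from opposite strands. The 2-unit core GAANNTTC or TTCNNGAA, which is part of the longer motif, was present in 15 of 30 members, against 16.97% of all genes. Dnajb6 had a further window with another annotated start, 127 bases after the first base of the motif in place of 46. Capitals mark the longer motif in Hspe1, 100 to 61 bases before its start (chr1:55088048-55088087, plus strand), and Dnajb6, 65 to 21 bases before the nearer of these starts (chr5:29735833-29735877, plus strand).
Hspe1: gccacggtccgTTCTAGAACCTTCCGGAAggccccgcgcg
Dnajb6: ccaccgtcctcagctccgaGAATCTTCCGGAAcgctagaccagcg
Capitals mark the core in Hspa1a (chr17:34972237-34972276) and Hspa1b (chr17:34959319-34959358), both on the minus strand and both 120 to 81 bases before the start.
Hspa1a: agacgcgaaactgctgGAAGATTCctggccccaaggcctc
Hspa1b: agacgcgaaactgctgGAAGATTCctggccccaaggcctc
These 40 bases were the same in both genes, and their whole windows of 300 bases differed at 4 bases. The genes are near-identical copies, so the split of reads between them is uncertain, and their sum is given beside them. A match to a motif describes these letters only.

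The library totals lay between 29.1 and 49.6 M estimated counts (M, 1000000), with medians of 31.9, 41.0 and 33.0 M at 2, 6 and 10 months. Htt itself was measured at 139 to 163 counts per 1000000 of the library (CPM) in Q175 mice at 6 months, against 197 to 215 CPM in Q20 mice (log2 fold change -0.41, SE 0.0256, adjusted p = 6.27e-25). At 10 months Htt spanned 84.5 to 136 CPM in Q175 mice, against 151 to 181 CPM in Q20 mice (log2 fold change -0.52, adjusted p = 2.98e-07). At 2 months the Htt ranges overlapped, with 101 to 159 CPM in Q175 mice and 74.3 to 206 CPM in Q20 mice. At that age 5 libraries correlated with the others of their age at a median below 0.97, with the lowest at 0.9012, and 2 of them were Q20 libraries, so the 2-month comparisons are the least precise.

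**Figure D1:**
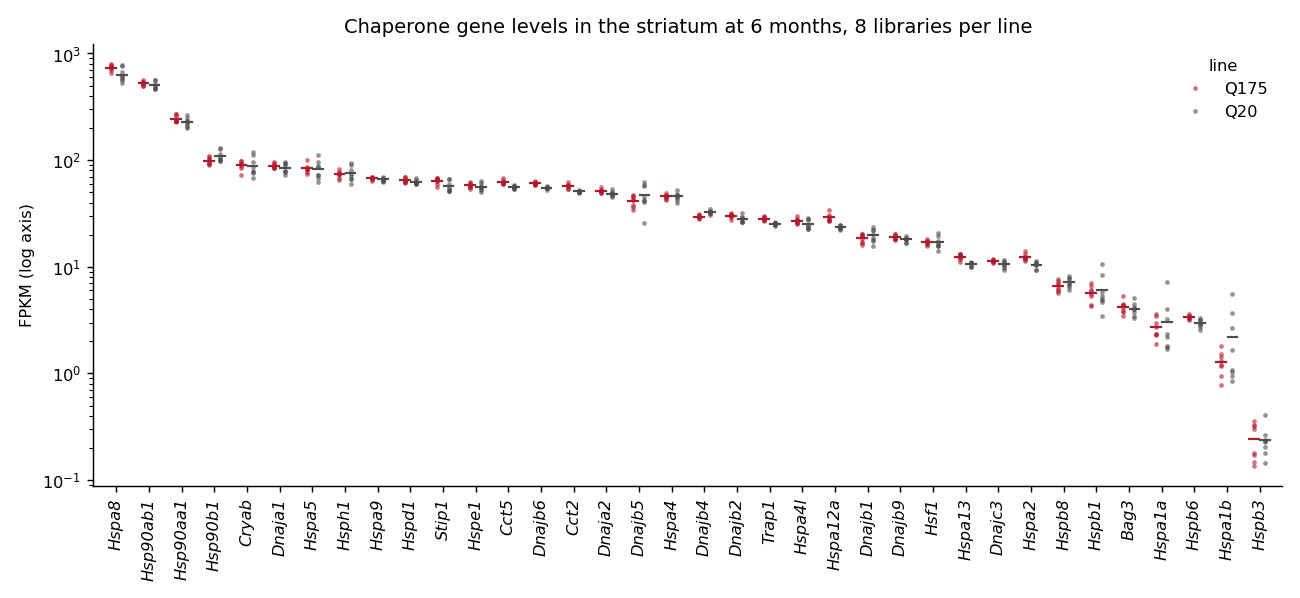
Levels of the 36 members at 6 months in FPKM (fragments scaled by transcript length and library size, log axis), with 1 point per library of Q175 and Q20 mice (n = 8 each) and a bar at the mean. Hspa8 is highest with a mean of 738.5 FPKM in Q175 mice and 635.1 FPKM in Q20 mice, and Hspb3 is lowest.

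Per unit of transcript length the constitutive cytosolic chaperones led. Hspa8, the Hsp70 made in unstressed cells, averaged 738.5 ± 44.0 FPKM in Q175 mice and 635.1 ± 92.3 FPKM in Q20 mice at 6 months (SD, n = 8 each). Hsp90ab1, the constitutive Hsp90, followed at 523.8 ± 22.7 FPKM in Q175 mice and 505.6 ± 39.2 FPKM in Q20 mice, and Hsp90aa1, its inducible relative, at 245.4 ± 19.1 FPKM in Q175 mice and 227.0 ± 22.1 FPKM in Q20 mice. The next genes, Hsp90b1, Cryab, Dnaja1 and Hspa5, averaged 83.7 to 98.9 FPKM in Q175 mice and 82.2 to 109.5 FPKM in Q20 mice, and neighbours in that order did not separate beyond their spread. The stress-inducible Hsp70 genes stood near the bottom of the order. Hspa1a averaged 2.7 ± 0.604 FPKM in Q175 mice and 3.04 ± 1.88 FPKM in Q20 mice, and Hspa1b averaged 1.27 ± 0.324 FPKM in Q175 mice and 2.18 ± 1.7 FPKM in Q20 mice. Hspb3, a small heat shock protein known from muscle, averaged 0.244 ± 0.0931 FPKM in Q175 mice and 0.237 ± 0.078 FPKM in Q20 mice.

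In Q175 mice single chaperones moved by small amounts in both directions against Q20 mice, and no more of them were called than of all genes. At 6 months 8 of 36 members were higher, against 18.0% of all genes tested, and 3 were lower, against 18.2% of all genes (edgeR quasi-likelihood test, Benjamini-Hochberg adjusted p under 0.05 over 17642 genes). At 10 months 5 of 36 were higher, against 12.4% of all genes, and 3 were lower, against 12.1% of all genes. On the log2 scale of the authors' FPKM the split was 13 higher and 2 lower at 6 months and 10 higher and 2 lower at 10 months. There 39.2% of all genes were higher and 12.6% lower at 6 months, and 29.0% were higher and 8.69% lower at 10 months. The share of members called in either direction was 30.6% at 6 months and 22.2% at 10 months, near that of all genes. The median log2 fold change was -0.014 over the members and 0.0097 over all genes at 6 months, and 0.01 and 0.011 at 10 months. The median size of the change, regardless of sign, was 0.076 for members and 0.12 for all genes at 6 months, and 0.067 for members and 0.11 for all genes at 10 months.

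**Figure D2:**
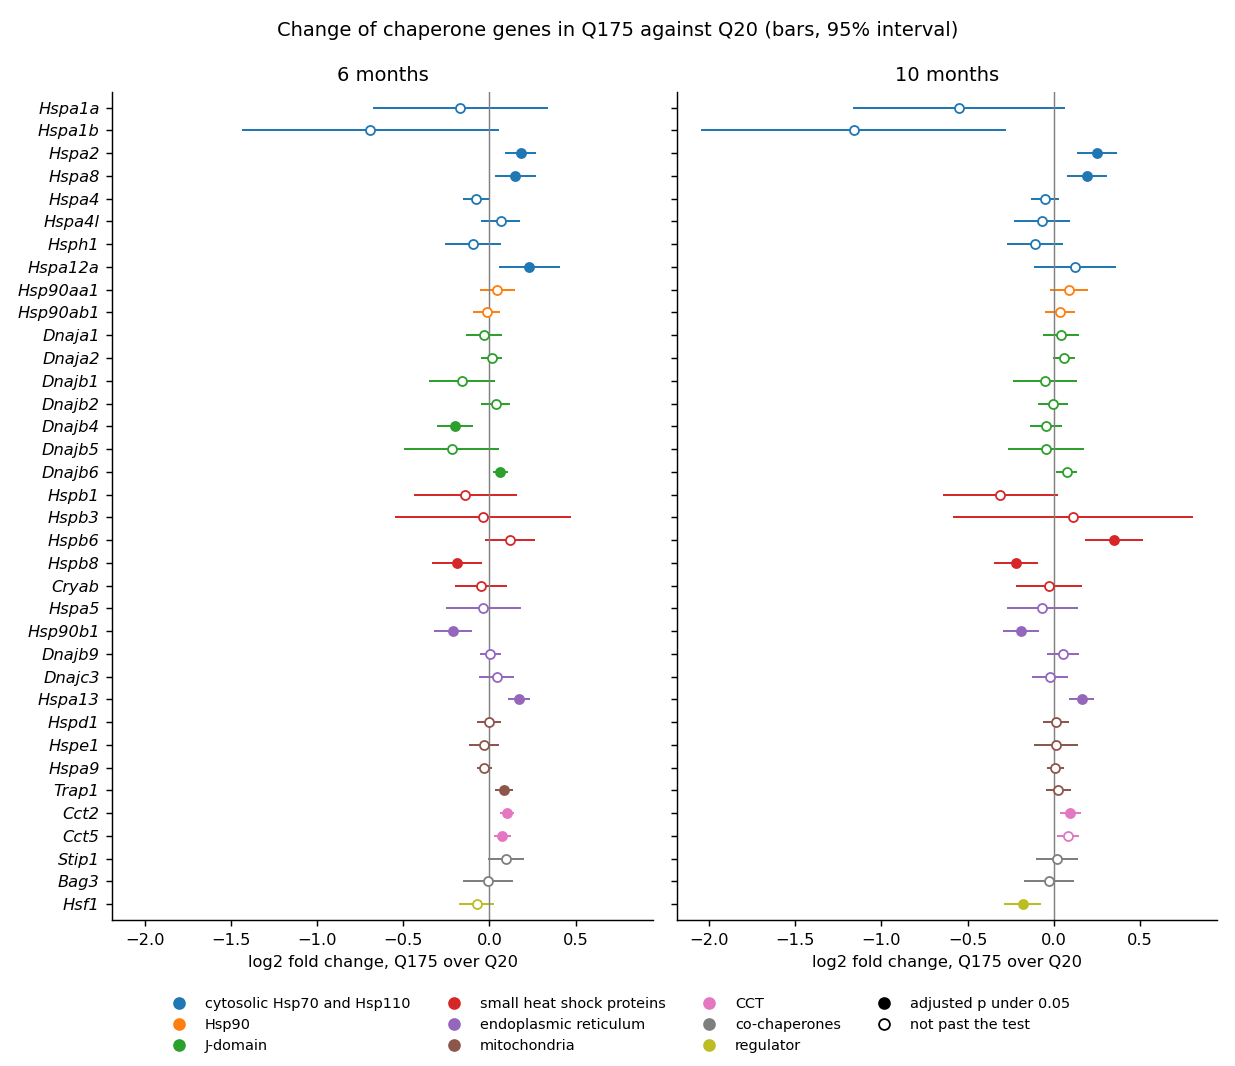
Log2 fold change of each member in Q175 against Q20 mice at 6 and 10 months, with 95% confidence intervals as bars and filled points for an adjusted p under 0.05 and colours for the class. Most intervals lie close to 0, and those of Hspa1a, Hspa1b and Hspb3 are the widest.

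These estimates limit how large a shift the libraries could hide. At 6 months the 95% interval of the log2 fold change lay within ±0.3 for 26 of 36 members and within ±0.5 for 33 of 36. The remaining 3 were Hspa1a, Hspa1b and Hspb3. At 10 months 27 of 36 intervals lay within ±0.3 and 31 of 36 within ±0.5.

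Cell-type markers moved in the same libraries. The 12 medium spiny neuron markers, which mark the projection neurons of the striatum, summed to 5131 to 5909 CPM in Q175 mice at 6 months, against 9445 to 11217 CPM in Q20 mice, and 11 of 12 were lower. At 10 months they summed to 3748 to 4977 CPM in Q175 mice, against 6337 to 8848 CPM in Q20 mice, and 11 of 12 were again lower. Of the astrocyte markers 1 of 8 was higher and 3 were lower at 6 months, with sums of 3864 to 4236 CPM in Q175 mice and 4417 to 5103 CPM in Q20 mice. Lower calls were made for 4 of 8 oligodendrocyte, 5 of 8 endothelial and 2 of 8 microglial markers. Sums for oligodendrocytes were 8562 to 10465 CPM in Q175 mice and 9693 to 11907 CPM in Q20 mice, those for endothelium 288 to 312 CPM in Q175 mice and 322 to 369 CPM in Q20 mice, and those for microglia 426 to 497 CPM in Q175 mice and 471 to 506 CPM in Q20 mice. At 10 months 2 of 8 astrocyte markers were higher and 5 were lower, with sums of 3751 to 4091 CPM in Q175 mice and 4419 to 4713 CPM in Q20 mice. Of the other lists at 10 months, 2 of 8 oligodendrocyte markers were higher and 4 lower, and 4 of 8 endothelial, 1 of 8 microglial, 1 of 10 cortical and 0 of 8 choroid plexus markers were lower. None of the 10 cortical excitatory or 8 choroid plexus markers was called at 6 months, and their sums overlapped, at 169 to 227 CPM in Q175 mice and 147 to 302 CPM in Q20 mice for cortex, and 42.0 to 74.0 CPM in Q175 mice and 32.5 to 79.2 CPM in Q20 mice for choroid plexus. The part of these cell types in the chaperone results was not tested.

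Among the cytosolic Hsp70 and Hsp110 genes 3 of 8 rose at 6 months and 2 of 8 at 10 months in Q175 mice, and none fell. This and the class counts that follow stand against the same shares of all genes as above, 18.0% higher and 18.2% lower at 6 months and 12.4% higher and 12.1% lower at 10 months. Hspa2, an Hsp70 best known from sperm development and also made in brain, spanned 27.7 to 34.1 CPM with a median of 29.7 in Q175 mice at 6 months, against 23.8 to 29 CPM with a median of 27 in Q20 mice. All 8 Q175 libraries lay above the Q20 mean and 5 above the highest Q20 library (log2 fold change 0.18, SE 0.0458, adjusted p = 0.00072). At 10 months Hspa2 spanned 23.1 to 27.9 CPM with a median of 25.1 in Q175 mice, against 17.6 to 25.4 CPM with a median of 21.6 in Q20 mice (log2 fold change 0.25, SE 0.0585, adjusted p = 0.000872). Hspa2 passed the threshold under every alternative tried at both ages.

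Hspa8 had 1475 to 1788 CPM with a median of 1648 in Q175 mice at 6 months, against 1238 to 1839 CPM with a median of 1418 in Q20 mice. The groups overlapped, and 7 of 8 Q175 libraries lay above the Q20 mean (log2 fold change 0.15, SE 0.0611, adjusted p = 0.0401). This call was lost under 13 of 25 alternatives, among them the omission of any one of 9 single libraries (Q175 F2, F3, F4 and M2, and Q20 F1, F2, F3, M1 and M3, where F and M denote females and males). It was also lost without the filter on low counts, in a fit of the 2 groups alone, with a library-name code as covariate, and with the wild types as the control, where the log2 fold change was 0.042. At 10 months Hspa8 had 1549.9 to 1843 CPM with a median of 1732 in Q175 mice, against 1285 to 1783 CPM with a median of 1454 in Q20 mice. All 8 Q175 libraries then lay above the Q20 mean (log2 fold change 0.19, SE 0.0589, adjusted p = 0.0114), and the call held under every alternative tried.

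Hspa12a, a distant Hsp70 relative that is abundant in brain, had 148 to 186 CPM with a median of 159.8 in Q175 mice at 6 months, against 129 to 144 CPM with a median of 135 in Q20 mice. The groups did not overlap (log2 fold change 0.23, SE 0.09, adjusted p = 0.0326). The call was lost without Q175 M4, Q20 F3 or Q20 M1, and with the wild types as the control (0.13). At 10 months its log2 fold change was 0.12 and did not pass.

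Hspa4, Hspa4l and Hsph1, the Hsp110 nucleotide exchange factors, did not pass at either age. Their log2 fold changes were -0.078, 0.064 and -0.095 at 6 months and -0.051, -0.067 and -0.11 at 10 months. Hsph1 had 239.7 to 306 CPM with a median of 274 in Q175 mice at 6 months, against 232 to 370.3 CPM with a median of 282 in Q20 mice, so the Q175 libraries lay inside the Q20 range, which reached higher.

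The inducible pair Hspa1a and Hspa1b did not pass the threshold. At 6 months Hspa1a had 4.75 to 8.5 CPM with a median of 6.46 in Q175 mice, against 4.13 to 18.7 CPM with a median of 5.85 in Q20 mice (log2 fold change -0.17, adjusted p = 0.658). For Hspa1b at 6 months all 8 Q175 libraries lay below the Q20 mean. Its log2 fold change was -0.65 with DESeq2 (adjusted p = 0.16), -0.74 against the wild types and -0.42 without Q20 M4. Median Hspa1b was 3.64 CPM in Q175 and 2.8 CPM in Q20 females, and 3.37 CPM in Q175 and 8.91 CPM in Q20 males. At 10 months Hspa1b had 1.15 to 3.02 CPM with a median of 1.85 in Q175 mice, against 0.478 to 20.3 CPM with a median of 1.96 in Q20 mice. The medians were close, and the Q20 group held a single library, M3, far above the rest.

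The fitted Hspa1b difference at 10 months, -1.16 on the log2 scale with an adjusted p of 0.0521, followed that library. Without it the value was -0.3 (adjusted p = 0.663), and against the wild types it was -0.44 (adjusted p = 0.546). DESeq2 called Hspa1b with an adjusted p of 0.0432, and so did edgeR when any one of 6 other libraries was left out (lowest adjusted p 0.0173). Summed over both genes, the level at 10 months was 4.09 to 7.52 CPM with a median of 5.38 in Q175 mice, against 2.59 to 37.2 CPM with a median of 4.79 in Q20 mice.

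Neither cytosolic Hsp90 gene was called. Hsp90aa1 had a median of 665 CPM in Q175 mice at 6 months, against 597 to 799 CPM with a median of 671 in Q20 mice. Hsp90ab1 had 1204 to 1375 CPM with a median of 1268 in Q175 mice, against 1158 to 1453 CPM with a median of 1267 in Q20 mice. For both genes all 8 Q175 libraries lay inside the Q20 range, and the log2 fold changes were 0.046 and -0.016 at 6 months and 0.087 and 0.036 at 10 months.

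The J-domain proteins moved in opposite directions at 6 months, with 1 of 7 higher and 1 of 7 lower in Q175 mice, and none passed at 10 months. Dnajb4, a heat-inducible partner of Hsp70, had 65.1 to 71.9 CPM with a median of 69.3 in Q175 mice, against 75.7 to 84.4 CPM with a median of 79.2 in Q20 mice. The groups did not overlap (log2 fold change -0.20, SE 0.0532, adjusted p = 0.00124), and the call held under every alternative tried. At 10 months the Dnajb4 difference was -0.045.

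Dnajb6, a suppressor of polyglutamine aggregation whose promoter stretch is printed above, had 102 to 109.5 CPM with a median of 105 in Q175 mice at 6 months, against 97.8 to 105 CPM with a median of 101 in Q20 mice. All 8 Q175 libraries lay above the Q20 mean, by a small amount (log2 fold change 0.062, SE 0.0219, adjusted p = 0.0191). The call was lost without Q20 F1 or Q20 M4, and with the wild types as the control (0.02). At 10 months the log2 fold change was 0.073 (adjusted p = 0.0896). Dnaja1, Dnaja2, Dnajb1, Dnajb2 and Dnajb5 did not pass at either age in the main fit. With the replicate number fitted as a block, Dnajb1 and Dnajb5 were called lower at 6 months. On the log2(FPKM + 1) scale, where most called genes were higher, Dnaja2 and Dnajb2 were called at 6 months and Dnaja2 at 10 months. Dnajb1, the main heat-inducible J-domain protein, had 34.9 to 44.2 CPM with a median of 41.2 in Q175 mice at 6 months, against 36.0 to 55.1 CPM with a median of 44.3 in Q20 mice (log2 fold change -0.16).

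Of the small heat shock proteins 1 of 5 was lower at 6 months, and 1 was higher and 1 lower at 10 months. Hspb8, which works with the co-chaperone Bag3 in clearing aggregates, had 9.84 to 13.6 CPM with a median of 11.4 in Q175 mice at 6 months, against 11.2 to 15.4 CPM with a median of 12.9 in Q20 mice (log2 fold change -0.19, SE 0.0745, adjusted p = 0.042). This call was lost under 13 of 25 alternatives, including the omission of any one of 9 libraries (Q175 F1, F2, M2, M3 and M4, and Q20 F3, M2, M3 and M4), and it stood at -0.12 with the wild types as the control. At 10 months Hspb8 had 10.2 to 14 CPM with a median of 12.6 in Q175 mice, against 12.6 to 16.7 CPM with a median of 14.5 in Q20 mice (log2 fold change -0.22, SE 0.0638, adjusted p = 0.007). There it held under every alternative tried. Bag3 had log2 fold changes of -0.011 and -0.028 at 6 and 10 months and was not called.

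Hspb6, a small heat shock protein best known from muscle, was the only member with a called difference of the Q175 effect between ages. At 10 months it had 3.87 to 5.97 CPM with a median of 5.29 in Q175 mice, against 3.33 to 4.4 CPM with a median of 4.05 in Q20 mice, and 7 of 8 Q175 libraries exceeded the highest Q20 library (log2 fold change 0.35, SE 0.0858, adjusted p = 0.00161). At 2 months it had 2.97 to 4.54 CPM with a median of 3.61 in Q175 mice, against 3.0 to 6.76 CPM with a median of 4.26 in Q20 mice (log2 fold change -0.29, adjusted p = 0.832). The log2 fold change at 10 months exceeded that at 2 months by 0.63 (SE 0.153, adjusted p = 0.00306). It was the sole member higher in that test, 2.8% of members against 2.26% of all genes, which are similar shares. This difference rests in part on the uncalled 2-month value, and it was recomputed under 1 alternative only, where it was 0.64. At 2 months the Q20 group stood high for Hspb6. Above its mean lay 0 of 8 libraries in Q175 and in Q111 mice, 1 of 8 in Q140 mice, and 2 of 8 in Q92 and in Q80 mice. That Q20 group holds M2 and M3, whose correlation with the others of their age was low (medians 0.9429 and 0.9492). The 10-month call was lost with the wild types as the control (0.21).

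Cryab, the small heat shock protein of oligodendrocytes and lens, had 83.9 to 113 CPM with a median of 105 in Q175 mice at 6 months, against 81.1 to 144 CPM with a median of 98.3 in Q20 mice (log2 fold change -0.048, not called). Hspb1, induced in stressed glia, had 3.79 to 6.24 CPM with a median of 4.95 in Q175 mice, against 3.15 to 9.98 CPM with a median of 4.71 in Q20 mice (log2 fold change -0.14, not called). For both genes the Q175 libraries lay inside the Q20 range. Hspb3 was close to the limit of detection and was removed by the filter on low counts at 2 months.

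In the endoplasmic reticulum class 1 of 5 genes rose and 1 fell at both ages. Hsp90b1, the Hsp90 of the endoplasmic reticulum, had 243 to 294 CPM with a median of 265 in Q175 mice at 6 months, against 276 to 367 CPM with a median of 294 in Q20 mice. All 8 Q175 libraries lay below the Q20 mean (log2 fold change -0.21, SE 0.056, adjusted p = 0.00162). At 10 months it had 269 to 330.1 CPM with a median of 291 in Q175 mice, against 306 to 377 CPM with a median of 325 in Q20 mice (log2 fold change -0.19, SE 0.0525, adjusted p = 0.00417). Hsp90b1 passed under every alternative tried at both ages.

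Hspa13, an Hsp70-like protein of microsomes, had 42.8 to 50.7 CPM with a median of 48.7 in Q175 mice at 6 months, against 39.7 to 44.4 CPM with a median of 43.0 in Q20 mice. It had the smallest adjusted p of the members at that age, and 7 of 8 Q175 libraries exceeded the highest Q20 library (log2 fold change 0.17, SE 0.0333, adjusted p = 1.26e-05). At 10 months it had 49.9 to 62.3 CPM with a median of 58.0 in Q175 mice, against 46.1 to 53.9 CPM with a median of 51.7 in Q20 mice (log2 fold change 0.16, SE 0.0381, adjusted p = 0.00108). These calls held under every alternative tried.

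The other genes with the stress element did not pass. Hspa5, the Hsp70 of the endoplasmic reticulum and the usual readout of unfolded protein there, had 184 to 245 CPM with a median of 200 in Q175 mice at 6 months, against 158 to 291 CPM with a median of 202 in Q20 mice (log2 fold change -0.035). Dnajc3, an inhibitor of the kinase PERK, had 53.8 to 59.4 CPM with a median of 56.9 in Q175 mice, against 48.5 to 61.4 CPM with a median of 55.6 in Q20 mice (log2 fold change 0.042). For both genes the Q175 libraries lay inside the Q20 range, unlike those of Hsp90b1. Dnajb9, a J-domain partner of Hspa5, had log2 fold changes of 0.0047 and 0.053 at 6 and 10 months.

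Of the mitochondrial genes 1 of 4 rose at 6 months and none at 10 months. Trap1, the Hsp90 of mitochondria, had 59.4 to 65.7 CPM with a median of 63.6 in Q175 mice at 6 months, against 56.3 to 61.7 CPM with a median of 60.1 in Q20 mice (log2 fold change 0.083, SE 0.0267, adjusted p = 0.00968). At 10 months its log2 fold change was 0.026. Hspd1 and Hspe1, which form the folding chamber of mitochondria and its lid, and Hspa9, the mitochondrial Hsp70, had log2 fold changes of -0.0021, -0.031 and -0.03 at 6 months, none called.

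Both CCT subunits rose at 6 months. Cct2 had 102 to 116 CPM with a median of 109 in Q175 mice, against 98.0 to 106 CPM with a median of 101 in Q20 mice (log2 fold change 0.10, SE 0.0206, adjusted p = 3.76e-05). Cct5 had 103 to 117 CPM with a median of 106 in Q175 mice, against 98.4 to 107 CPM with a median of 103 in Q20 mice (log2 fold change 0.075, SE 0.0261, adjusted p = 0.0176). All 8 Q175 libraries lay above the Q20 mean for each gene. The Cct5 call was lost without Q175 F2 or Q20 F1, with the wild types as the control (0.036) and in a fit of the 2 groups alone.

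At 10 months Cct2 had 117 to 135 CPM with a median of 119.9 in Q175 mice, against 106 to 122 CPM with a median of 114 in Q20 mice (log2 fold change 0.096, SE 0.0297, adjusted p = 0.0135), a call lost without Q175 M4 and in a fit of the 2 groups alone. Cct5 had a log2 fold change of 0.082 at that age (adjusted p = 0.0675). The co-chaperone Stip1, which links Hsp70 to Hsp90, had log2 fold changes of 0.094 and 0.019 at 6 and 10 months and was not called. Hsf1, the main activator of the heat shock response, had 22.3 to 26.4 CPM with a median of 25.5 in Q175 mice at 10 months, against 24.9 to 31.7 CPM with a median of 27.2 in Q20 mice (log2 fold change -0.18, SE 0.0546, adjusted p = 0.0118), a call lost on the log2(FPKM + 1) scale. At 6 months Hsf1 stood at -0.074 and was not called.

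**Figure D3:**
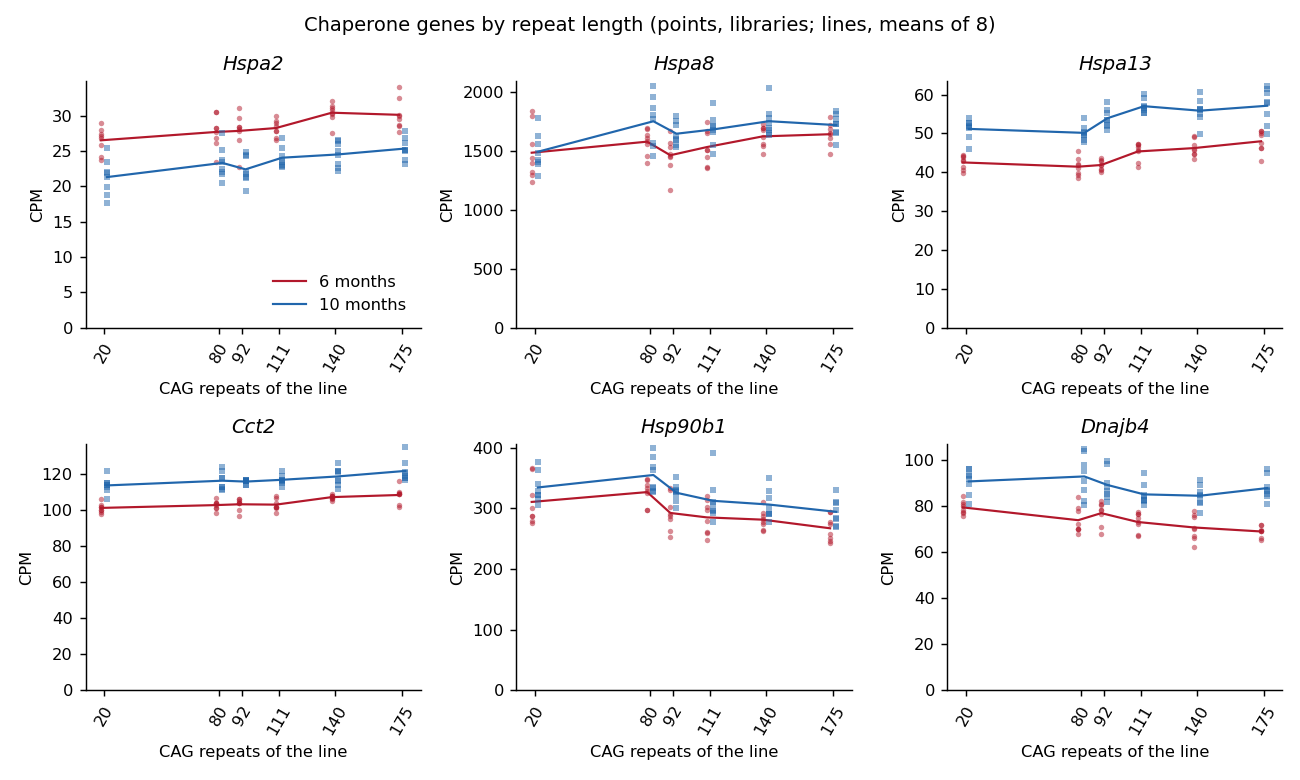
CPM of Hspa2, Hspa8, Hspa13, Cct2, Hsp90b1 and Dnajb4 against the CAG repeats of the 6 knock-in lines at 6 and 10 months (points, libraries; lines, means of 8; axes start at 0). On a full axis the shifts are small beside the levels, as for Hspa13 with a median of 48.7 CPM in Q175 mice and 43 CPM in Q20 mice at 6 months.

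Fewer members were called in the shorter repeats. At 6 months none of 36 members was called by edgeR in Q80 mice, against 0.289% of all genes in either direction, and none in Q92 mice, against 5.99%. At an unadjusted p under 0.05 each of these lines had 2 members, against 11.2% of all genes in Q80 mice and 20.3% in Q92 mice, and DESeq2 called none. In Q111 mice none was higher, against 5.37% of all genes, and 1 was lower, against 7.45%, namely Hspa4 (log2 fold change -0.11, adjusted p = 0.0425). No member was called in Q111 mice without the filter on low counts, nor with the tissue scores as covariates. In Q140 mice 6 were higher, against 13.8% of all genes, and 1 was lower, against 14.1%. The Q140 values were 0.20 for Hspa2, 0.12 for Hspa13, 0.10 for Dnajb6, 0.085 for Trap1 and Cct5, 0.083 for Cct2 and -0.17 for Dnajb4.

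At 10 months none of 36 members was called in Q80 mice, against 0.122% of all genes, and none in Q92 mice, against 1.12%. An unadjusted p under 0.05 was reached by 10 members in Q80 mice, against 20.4% of all genes, and by 6 in Q92 mice, against 13.1%. DESeq2 called 2 members in Q80 mice, against 2.07% of all genes, and 0 in Q92 mice. In Q111 mice 2 were higher, against 5.58% of all genes, and 1 was lower, against 6.9%. These were Hspa2 (0.18), Hspa13 (0.16) and Hspb8 (-0.24). In Q140 mice 5 were higher, against 10.9% of all genes, and 1 was lower, against 11.6%. Hspa2 (0.20), Hspa8 (0.22), Hspa13 (0.13), Dnaja2 (0.099) and Dnajb6 (0.089) were the higher ones, and Hspb8 had a log2 fold change of -0.32 (adjusted p = 0.000116). In these Q140 libraries 11 of 12 medium spiny neuron markers were lower and 4 of 8 choroid plexus markers were higher (median log2 fold change of the 8 markers 0.81), and 3 members were called in place of 6 with the tissue scores of the cortical and choroid plexus lists as covariates. Hspa13 in Q111 mice had 55.2 to 60.2 CPM with a median of 56.7, against 46.1 to 53.9 CPM with a median of 51.7 in Q20 mice, with no overlap.

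A linear term in repeat length was also fitted over the 6 lines, taking libraries as independent although repeat length differs only between lines. At 6 months 8 of 36 members rose with repeat length, against 20.3% of all genes, and 4 fell, against 19.6%. Per 10 CAG repeats the log2 slope was 0.014 for Hspa2 and Hspa12a, 0.013 for Hspa13 and 0.010 for Hspa8, and it was 0.0055 to 0.0069 for Dnajb6, Trap1, Cct2 and Cct5. The falling members were Hsp90b1 (-0.016), Hspb8 (-0.014), Dnajb4 (-0.013) and Hspa4 (-0.0063). At 10 months 6 of 35 members rose, against 15.9% of all genes, and 4 fell, against 16.9%. Hspb6 had the steepest rise at 0.021 per 10 repeats, followed by Hspa2 at 0.016, Hspa13 at 0.012 and Hspa8 at 0.011. Hspb8 (-0.021), Hsp90b1 (-0.015), Hsf1 (-0.014) and Hspa1b (-0.084, adjusted p = 0.0151) fell. The Hspa1b call was lost under 4 of 10 alternatives. Without Q20 M3, an omission chosen after seeing the data, the Hspa1b slope was -0.043 (adjusted p = 0.246). The other losses came with a library-name code as covariate, on the log2(FPKM + 1) scale and in a trend without the Q175 line. At 6 months the Hspa1b slope was -0.058 (edgeR adjusted p = 0.059) and was not called.

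Against wild types of their own cages at 6 months, 4 of 36 members were higher in Q175 mice, against 15.7% of all genes, and 4 were lower, against 16.1%. Hsp90b1 had 243 to 294 CPM with a median of 265 in Q175 mice, against 282 to 406 CPM with a median of 316 in these wild types (log2 fold change -0.31, SE 0.056, adjusted p = 5.14e-06). Cryab, not called against Q20 mice, had 83.9 to 113 CPM with a median of 105 in Q175 mice, against 101 to 151 CPM with a median of 120.2 in these wild types (log2 fold change -0.22, adjusted p = 0.0228). Hspa4 (-0.14, adjusted p = 0.00415) and Dnajb4 (-0.17) were the other lower members, and Hspa2 (0.16), Hspa13 (0.14), Cct2 (0.069) and Trap1 (0.067) were higher.

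In Q140 mice 5 members were higher than in their wild types, against 12.4% of all genes, and 1 was lower, against 11.7%. Hspa13 (0.14), Trap1 (0.082), Cct5 (0.082), Dnajb6 (0.075) and Cct2 (0.063) were higher and Hsp90b1 (-0.17) was lower. In Q111 mice 2 were higher, against 4.28% of all genes, and none was lower, against 4.66%. These were Hspa13 (0.19, adjusted p = 2.94e-05) and Cct2 (0.068).

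No member was called by edgeR in Q92 or Q80 mice against their wild types, where 0.051% of all genes were called in each, or in Q20 mice, where 0.0227% were. An unadjusted p under 0.05 was reached by 1 member in Q92 mice, 2 in Q80 mice and 0 in Q20 mice. For comparisons of a line with wild types the share of all genes at that unadjusted threshold is not given here. Q20 mice did not differ from wild types in any member at 2 months, where 0.0% of all genes were called and 1 member had an unadjusted p under 0.05, nor at 10 months, where 0.0116% were called and 0 members did. Among the 6 wild-type groups of 6 months no member differed, against 1.34% of all genes, and 8 had an unadjusted p under 0.05, against 15.4% of all genes.

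At 2 months no member was called in any line. None of 35 members passed in Q80 mice, against 0.0118% of all genes, in Q92 mice (0.0%), in Q111 mice (0.0176%), in Q140 mice (0.0%) or in Q175 mice (0.218%). An unadjusted p under 0.05 was reached by 1 member in Q140 mice, 1 in Q175 mice and 0 in each other line, and DESeq2 called none. The trend over repeat length called none of 35, against 0.354% of all genes, with 2 at an unadjusted p under 0.05. The shares of all genes at that unadjusted threshold are not given for this age. The median SE over members in Q175 mice was 0.0806 at 2 months, against 0.0532 at 6 months and 0.0577 at 10 months. In Q175 mice 13 of 35 intervals lay within ±0.2 at 2 months, against 19 of 36 at 6 months. Within ±0.3 lay 25 of 35, against 26 of 36 at 6 months. Shifts of the size seen later could thus be hidden for many members.

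The difference of the Q175 effect between ages was tested in a fit over all libraries. Between 6 and 2 months no member passed, against 7.88% of all genes in either direction. At an unadjusted p under 0.05 there were 4 members, a count without a share of all genes beside it. Between 10 and 6 months none passed, against 0.0112% of all genes, and 0 had an unadjusted p under 0.05. The members called at 6 months and not at 10, such as Dnajb4 and Trap1, were therefore not shown to differ between these ages.

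**Figure D4:**
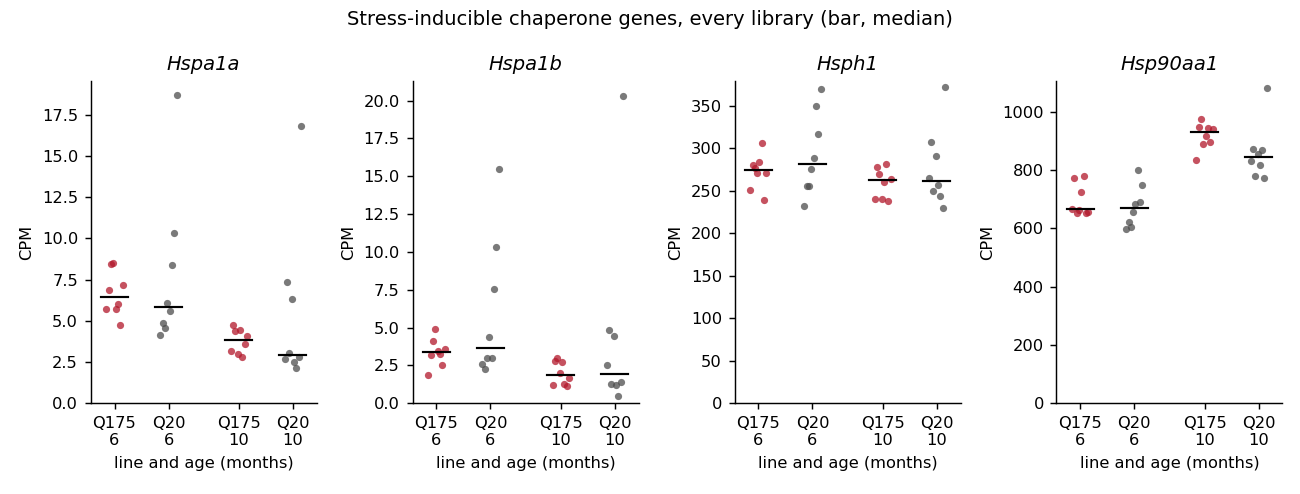
CPM of Hspa1a, Hspa1b, Hsph1 and Hsp90aa1 in each library of Q175 and Q20 mice at 6 and 10 months, with a bar at the median. At 10 months 1 Q20 library, M3, lies far above the rest for Hspa1a and Hspa1b, at 16.8 and 20.3 CPM.

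The inducible Hsp70 genes varied more between libraries of the same group than most genes. After removal of group and sex means, the SD of log2 CPM at 6 months was 0.705 for Hspa1b and 0.473 for Hspa1a, at the 96.8th and 90.0th percentile of all genes tested, against a median of 0.121 over all genes. Hspb3, at 0.484 and the 90.6th percentile, and Hspb1, at 0.308 and the 79.8th, also varied more than most. Cct2 (0.0397, percentile 1.3), Dnajb6 (0.0427, percentile 2.2) and Hspa9 (0.043, percentile 2.3) were among the steadiest genes. Q20 M4 was the highest of its group in 18 of 36 members at 6 months, against 16.6% of all genes tested. At 10 months Q20 M3 was the highest in 23 of 36 members, against 14.4% of all genes, and Q175 M4 in 16 of 36, against 20.9%. In the Q175 group of 6 months the top place was spread, with F2, F4 and M2 highest in 8 members each and M4 in 9. Hspa1a, Hspa1b, Hspa8 and Dnaja1 also followed the replicate number at 6 months, wild types included. They lay mostly below the group and sex mean in the lowest-numbered libraries and mostly above it in the highest-numbered ones. Q20 M4 at 6 months, and Q20 M3 and Q175 M4 at 10 months, carry the highest male number of their group. The cause was not tested. The sum of Hspa1a and Hspa1b reached 34.2 CPM in Q20 mice at 6 months and 59.8 CPM in the wild types housed with them, although the medians were 9.52 CPM in these Q20 mice and 10.6 CPM in these wild types.

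The Q175 effect was compared between sexes at each age. No member passed the adjusted threshold at 2, 6 or 10 months, where 0.0% of all genes were called each time, and 3, 16 and 0 members had an unadjusted p under 0.05. The 16 of 36 members at 6 months stood against 5.63% of all genes at that unadjusted threshold, and in all 16 the female effect was the higher. That share is not given for 2 and 10 months. The 10-month test relies on the uncertain sex label of Q20 F5. For Hspa1a the medians were 7.67 CPM in Q175 females and 4.72 CPM in Q20 females, and 5.88 CPM in Q175 males and 9.35 CPM in Q20 males (n = 4 each). The female effect exceeded the male effect by 1.46 on the log2 scale for Hspa1a (SE 0.476, edgeR unadjusted p = 0.00311, adjusted p = 0.816). For Hsph1 the medians were 274 CPM in Q175 females, 256 CPM in Q20 females, 277 CPM in Q175 males and 334 CPM in Q20 males. Without the male library Q20 M4, an omission chosen after seeing the data, 3 of 36 members had an unadjusted p under 0.05, against 3.85% of all genes. All 16 differences stayed positive without it, with a median of 0.20 on the log2 scale against 0.24 with every library. That of Hspa8 was 0.22 against 0.28. These 16 were picked by the test itself and the remaining libraries were reused, so little change of sign was possible. Pairs among them also covaried between libraries, as given below, so they are not 16 separate observations.

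**Figure D5:**
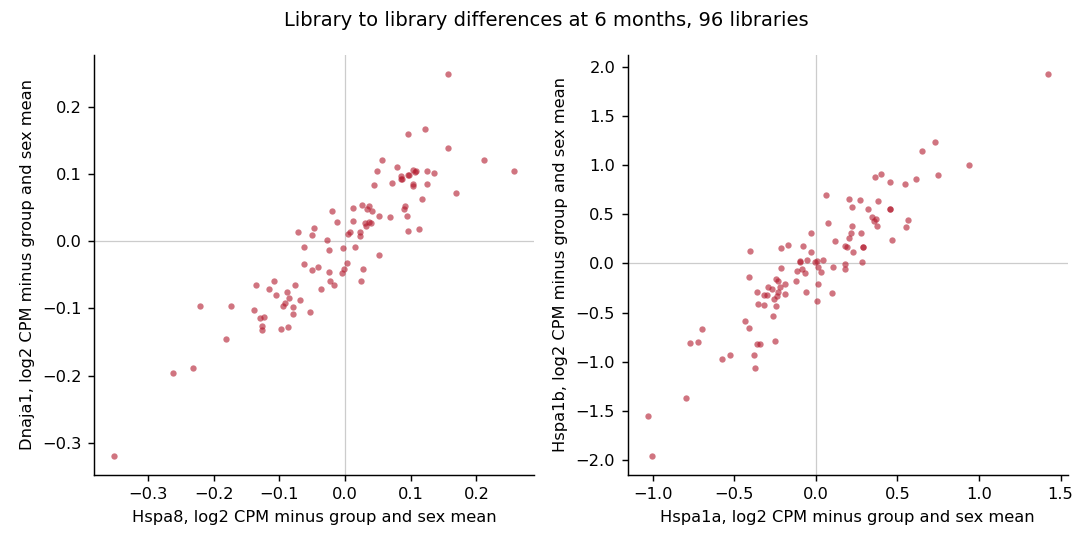
Log2 CPM after removal of group and sex means for Dnaja1 against Hspa8 and for Hspa1b against Hspa1a across the 96 libraries of 6 months, 1 point per library. Both clouds are narrow, with Pearson's r of 0.9 for Hspa8 and Dnaja1 and 0.913 for Hspa1a and Hspa1b.

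Expression was compared from library to library for 8 pairs of partner genes, and other pairs were not tested. Across the 96 libraries of 6 months, after removal of group and sex means, Hspa8 and its J-domain partner Dnaja1 had Pearson's r = 0.9 and Spearman's rho = 0.908, and r = 0.879 without the 2 libraries farthest from the Hspa8 median. Hspa1a and Hspa1b, whose reads may be shared, had r = 0.913 and rho = 0.897, and r = 0.895 without the 2 farthest. Hspa1a and Hsph1 had r = 0.621 and rho = 0.621, and r = 0.585 without the 2 farthest.

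The pair of the mitochondrial chamber, Hspd1 and Hspe1, had r = 0.693, rho = 0.7 and r = 0.638 without the 2 farthest libraries. Hspa5 and Hsp90b1 of the endoplasmic reticulum had r = 0.637, rho = 0.663 and r = 0.611 without them. Hsph1 and Hsp90aa1 had r = 0.71, rho = 0.662 and r = 0.634 without the 2 farthest, and Hspb1 and Cryab had r = 0.612, rho = 0.616 and r = 0.617 without them. Cct2 and Cct5, both steady, had r = 0.421, rho = 0.445 and r = 0.367 without the 2 farthest. For 7 of these 8 pairs both permutation p-values were 1e-05, before and after Benjamini-Hochberg adjustment, the smallest that 100000 permutations can give. For Cct2 and Cct5 they were 3e-05 for r and 2e-05 for rho. The permutations shuffled libraries freely, although values were centred within each group and sex and some followed the replicate number. The libraries are thus not fully interchangeable, and these p-values may overstate the evidence. Ordinary gene pairs were not tested as a baseline. Libraries share preparation and depth, and the part of these in the correlations was not tested.

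Outside the set, 119 other chaperone and co-chaperone genes had an identifier. At 6 months 21 of 113 tested were higher and 21 lower in Q175 mice than in Q20 mice, and at 10 months 13 of 112 were higher and 9 lower, against the same shares of all genes as given for the members. Of the 13 other CCT and prefoldin genes, 5 were higher and 1 was lower at 6 months, and 5 of 12 tested were higher and 0 lower at 10 months. Of 21 other folding genes of the endoplasmic reticulum, 0 were higher and 5 lower at 6 months, and 0 were higher and 1 lower at 10 months. The other lists were mixed at 6 months, with 8 of 30 co-chaperones higher and 5 lower, 6 of 35 J-domain genes higher and 8 lower, 1 of 8 mitochondrial folding genes higher and 2 lower, and 1 of 6 remaining Hsp70 and small heat shock genes higher and 0 lower.

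Atf6, an activator of the endoplasmic reticulum stress element, had the largest fall among them. It averaged 75.7 ± 3.88 CPM in Q175 mice and 109 ± 6.63 CPM in Q20 mice at 6 months (SD, n = 8 each, log2 fold change -0.52, SE 0.0381, adjusted p = 5.93e-21), and 73.0 ± 6.13 CPM in Q175 mice and 95.6 ± 4.65 CPM in Q20 mice at 10 months (log2 fold change -0.39). The ribosome-bound J-domain protein Dnajc2 (-0.39) and the mitochondrial import receptor Tomm70a (-0.35) followed at 6 months, and Dnajc8 (-0.26) and Dnajc2 (-0.22) at 10 months. The largest rise was in Bag2, a co-chaperone of Hsp70, which averaged 4.45 ± 0.256 CPM in Q175 mice and 3.14 ± 0.39 CPM in Q20 mice at 6 months (log2 fold change 0.50, SE 0.081, adjusted p = 2.72e-07), with a log2 fold change of 0.37 at 10 months. Dnajc6, which uncoats clathrin vesicles, rose by 0.26 on the log2 scale at 6 months. Ahsa2, a relative of an Hsp90 activator, rose by 0.26 and 0.31 at 6 and 10 months, and the prefoldin subunit Vbp1 rose by 0.23 at 10 months.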

How the data were processed

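Per the labels, striatal polyA RNA was sequenced, and per the submitters' processing notes CASAVA 1.8.2 was used; the sources used here name neither aligner nor genome build. The deposited tables hold expected counts, of which 32.7% of the nonzero values were not whole, and FPKM. Expected counts were rounded and tested with edgeR 4.0.16 (R 4.3.3; TMM factors, filterByExpr with a minimum count of 10 and total of 15, quasi-likelihood test, sex as covariate, all groups of an age in one fit) with Benjamini-Hochberg adjustment at 0.05 over all genes tested (17642, 17170 and 17006 genes at 6, 10 and 2 months). Between-age differences came from one fit over all ages. CPM values are normalized counts. Alternatives were DESeq2 1.42.0, limma 3.58.1 on log2(FPKM + 1) of the deposited FPKM (at least 1 FPKM in 8 libraries), other scalings, covariates and controls, and leaving out each library. Among the covariates, the L code is a tag in the library names and the tissue scores are the mean standardised log2 CPM of the cortical and choroid plexus marker lists. The method was tested on simulated data. All members were named, plus the 3 largest rises and falls among called other chaperones with a mean of at least 1 CPM. Members, lists and tests were chosen with earlier results of these data known. The labels do not state that a library is 1 animal, so p-values measure the spread between libraries. Intervals are 95%.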

Additional observations from a re-analysis of the deposited data

Results flagged for a closer look

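Within the Q175 and Q20 groups of 6 and 10 months, 144 groups of 8 values were examined for a library that stood apart from the rest by Dixon's criterion (gap over range above 0.526), and 12 had one. Chance gives about 1 in 20 groups, so several such groups would arise by chance. Of the 12, 6 came from 1 library, Q20 M3 at 10 months, which stood above the other Q20 libraries. It had 16.8 CPM of Hspa1a (next highest 7.33 CPM), 20.3 CPM of Hspa1b (next 4.86), 269 CPM of Hspa4l (next 216), 1081 CPM of Hsp90aa1 (next 871), 37.3 CPM of Dnajb2 (next 33.5) and 188 CPM of Hspd1 (next 163).

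At 6 months Q20 M4 had 18.7 CPM of Hspa1a (next 10.3) and Q20 F1 had 0.321 CPM of Hspb3 (next 0.207). Also at 6 months Q175 F4 had 245 CPM of Hspa5 (next 209.6), and Q175 F1 had the lowest Dnajb2 at 33.2 CPM (next lowest 35.8). At 10 months Q175 F2 had 233 CPM of Hspa12a (next 182) and Q175 M4 had 139.7 CPM of Cct5 (next 127). The Q175 effect on Hspb6 differed between ages, with a log2 fold change at 10 months above that at 2 months by 0.63 (edgeR adjusted p = 0.00306). In that test 2.8% of members were called, near the 2.26% of all genes that were higher.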

How the results depend on the processing

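Of the counts of members and the trend counts recomputed under alternatives, 249 stayed within 1.5 times the reported count and 20 moved beyond it. The 249 include all counts of 2 months, which were 0 under every setting, so they overstate how steady the nonzero counts are. For single named members 441 values kept their direction and side of the threshold, 45 kept their direction and lost the threshold, and 0 reversed. On log2(FPKM + 1), which follows the authors' own scaling, the median of all genes shifted up by 0.067 at 6 months and 0.063 at 10 months, the size of the calls for Dnajb6, Cct5 and Trap1, which there had log2 fold changes of 0.14, 0.15 and 0.15 at 6 months. There 75.7% and 77.0% of all called genes were higher in Q175 mice, and the members called were 13 higher at 6 months and 10 at 10 months, against 8 and 5 in the report. Under that scale Q111 gave 4 called members at 6 months and 7 at 10 months, Q140 gave 13 at 10 months, and the trend gave 14 higher and 2 lower at 6 months and 14 higher at 10 months. Shares of all genes on that scale are given for Q175 mice only, where 39.2% were higher at 6 months and 29.0% at 10 months. The Q111, Q140 and trend counts are therefore not read as a rise of chaperones. With the wild types as the control, 4 members were higher in Q175 mice at 6 months. Q111 at 6 months gave 0 called members without the filter on low counts and 0 with tissue scores as covariates, and Q140 at 10 months gave 3 with them. Q80 at 10 months gave 2 with DESeq2, against 2.07% of all genes, and 5 with the L code, for which the share of all genes is not given. Without the Q175 line the trend gave 2 lower members at 6 months and 2 at 10 months. Leaving out single libraries gave 5 to 8 higher members (5 without Q20 F1) and 2 to 4 lower at 6 months, and 4 to 6 higher and 3 to 4 lower at 10 months. The count of sex differences at an unadjusted p under 0.05 was 3 without Q20 M4. The cause was not tested.

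The replicate number, with sex, was fitted as a replicate block. It gave 8 higher and 5 lower members in Q175 mice at 6 months, with Dnajb1 and Dnajb5 added, 5 higher and 3 lower at 10 months, and 3 called in Q111 mice at 6 months. Same-numbered libraries correlated at 0.0411 to 0.161 at 6 months, -0.181 to 0.0269 at 2 months and -0.0732 to 0.109 at 10 months, with 5 of 8, 0 of 8 and 1 of 7 pairs over 0.1. The main fit left the number out, since not every pair passed 0.1 at any age. That cut was not set against differently numbered libraries, so it cannot decide whether the number pairs libraries. At 6 months Hspa8, Dnaja1, Hspa1a and Hspa1b lay mostly below their group and sex mean in the lowest-numbered libraries. In the highest-numbered ones they lay mostly above it. The cause was not tested.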
